A study of Mus musculus with 6 samples.

Results

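The reported targets of miR-30 are 42 mouse genes whose messengers have been described as bound or repressed by microRNAs of the miR-30 family. They were taken from a fixed list of gene symbols, which was chosen with earlier results of these data known. Counts and medians over the list are therefore a description. Of the 42, 41 had a named feature on the array, among 22485 genes named there, and 40 were tested, since Ccne2 lay in the dimmest 25% of named features and Runx2 had no named feature. Their signal was compared in whole day 5 blastocysts between 3 samples cultured with a miR-30d mimic and 3 cultured with a scrambled oligonucleotide. Embryos of both groups were of the B6C3F1 hybrid strain, from females 6 to 8 weeks old that were primed with gonadotropins, mated and flushed on day 2 of pregnancy. They were held in CCM-30 medium for 72 hours with 400 nM of either synthetic RNA, at 30 embryos per condition. Each array was made from 50 ng of RNA and read with Cy3. The scrambled RNA carried the dye Alexa 488, which the labels mention only for this control, and untreated embryos are not among the arrays. Differences due to the dye and to miR-30d therefore cannot be told apart, and the effect of adding any synthetic RNA was not measured. The question the comparison addresses is which embryonic transcripts differ when a microRNA released by the endometrium is supplied from outside.

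A microRNA guides an Argonaute protein to messengers, mostly through pairing of its seed, the short stretch near its 5′ end, with a complementary site in the 3′ untranslated region of the messenger. Such pairing as a rule lowers the messenger, its translation or both, and an expression array reads only the messenger. Members of the miR-30 family share a seed and therefore many targets, which range from the Polycomb subunit Eed and the transcription factor Snai1 to autophagy and calcineurin genes.

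The mature sequences below, from RefSeq with build GRCm38.p6, are shown because the seed is the stretch through which members of the family pair with messengers. The mimic's own miR-30d is not among those shown. They are written 5′ to 3′, with the seed, bases 2 to 8, in capitals.

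mmu-miR-30a-5p: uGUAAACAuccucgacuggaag

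mmu-miR-30c-5p: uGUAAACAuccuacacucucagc

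mmu-miR-30e-5p: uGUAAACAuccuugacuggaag

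mmu-miR-384-5p: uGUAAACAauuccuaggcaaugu

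mmu-miR-30f: gUAAACAUccgacugaaagcuc

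Of 1679 mature microRNA names in the table, 4 carried the seed GUAAACA, namely miR-30a-5p, miR-30c-5p, miR-30e-5p and miR-384-5p. The table is not complete, so this is a count within it and not the size of the seed family. Outside the seed they part. Over the first 22 bases miR-30e-5p differed from miR-30a-5p at 1 base, miR-30c-5p at 5 and miR-384-5p at 10. The sequence named miR-30f begins 1 base further along the same motif, so that its bases 2 to 8 read UAAACAU and belong to another seed. The messenger letters that pair with the shared seed are UGUUUAC. Which of the 42 genes carry them in these embryos' transcripts was not analysed here.

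The deposited values are log2 signal on 6 arrays, with array medians of 7.366 to 7.376. All 14 markers of the blastocyst lineages that were looked at (6 of trophectoderm, 4 of inner cell mass and epiblast, 4 of primitive endoderm) were brighter than the median named feature, which lay at 7.45. Of 23 markers of cumulus, oviduct, sperm, blood, endothelial and stromal cells, 19 were dimmer than it, the exceptions being Foxl2, Pecam1, Kdr and Cdh5. The 5 stromal markers averaged 7.07 to 7.17 on the scramble arrays and 7.05 to 7.16 on the mimic arrays, beside which the targets Vim, Lox and Pdgfrb, strong in mesenchymal cells, are to be read. The 6 trophectoderm markers averaged 13.14 to 13.26 on the scramble arrays and 12.81 to 13.06 on the mimic arrays, each of the 6 with a lower mean and none past the test. The 4 markers of inner cell mass and epiblast averaged 9.08 to 9.52 and 9.40 to 9.50, and the 4 of primitive endoderm 9.96 to 10.18 and 10.09 to 10.38. The 4 endothelial markers averaged 8.14 to 8.33 with scramble and 8.23 to 9.45 with the mimic. Among them Cdh5, an adhesion gene of endothelial cells, read 7.41, 7.96 and 7.30 with scramble and 11.60, 8.56 and 8.11 with the mimic. Its groups did not overlap, as held for 9.7% of all genes tested. Its difference of 1.87 (SE 0.80, adjusted p = 0.972 in limma) was 0.78 without mimic replicate 1. The part of these markers in the results was not tested. In whole embryos a smaller share of a cell type and less of a messenger per cell cannot be told apart.

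The reported targets were not lower as a group in mimic-treated blastocysts. Of the 40 tested, 25 had a higher and 15 a lower mean with the mimic, and the median log2 difference (mimic minus scramble, here and throughout) was 0.045. Over all 17399 genes tested, 53.2% were higher and the median was 0.02. No target passed an adjusted p of 0.05 in the limma fit, where 0 of 17399 genes (0.0%) did, and the adjusted p of each target was at least 0.972. At an unadjusted p under 0.05 there were 0 targets, against 552 genes in all (3.17%), or 1.66% counting only genes higher with the mimic. With the replicate number as a block, 1 gene in all passed (0.00575%), which was no target, and the count at an unadjusted p under 0.05 was 1260 (7.24%), again with 0 targets. Differences of the targets ran from -0.40 for Lox to 0.60 for Cpsf2, and the quartiles were -0.14 and 0.19, close to those of all genes at -0.16 and 0.19. Cpsf2 alone of the 40 differed by more than 1.5-fold, as did 6.09% of all genes, and 0 differed by more than 2-fold, as did 0.943% of all genes. The median depends on single arrays: it was -0.0111, with 19 higher and 21 lower, without mimic replicate 2, and 0.141, with 28 higher, without scramble replicate 3. Leaving out mimic replicate 1 gave 0.118, and the other 3 omissions gave 0.0299 to 0.0588.

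**Figure D1:**
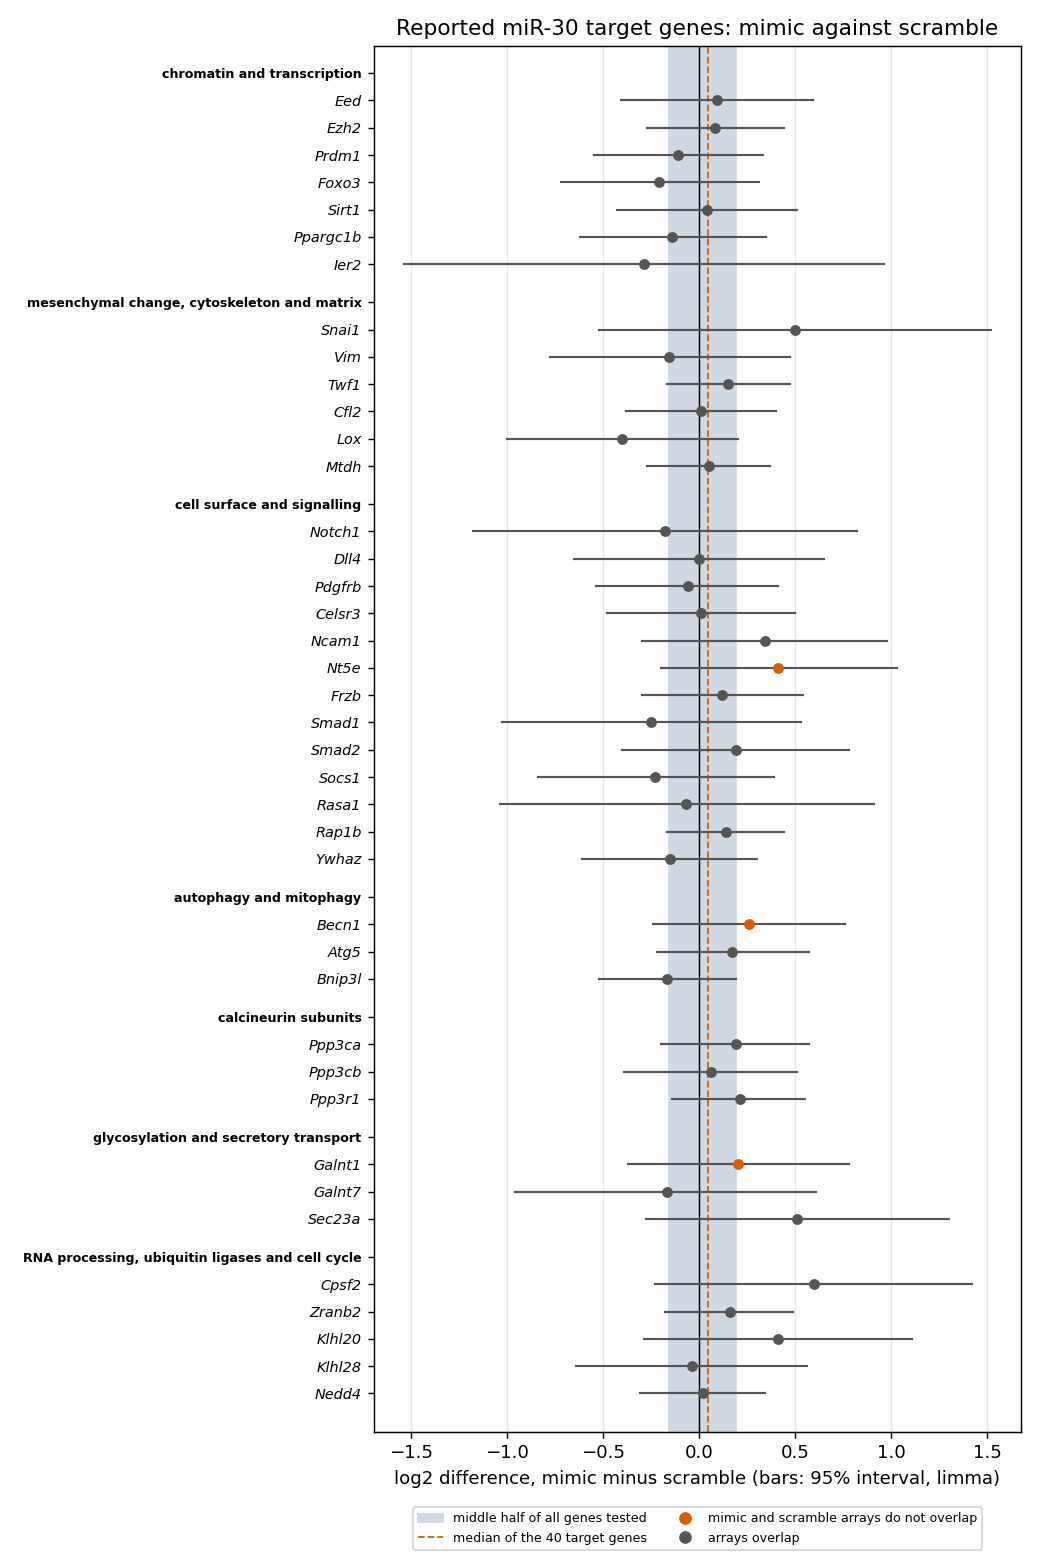
Log2 difference (mimic minus scramble) of the 40 tested target genes, grouped by role, with 95% intervals from the limma fit as bars; the shaded band spans the quartiles of all 17399 genes tested (-0.16 to 0.19) and the dashed line is the median of the targets (0.045). Every interval includes 0, and Nt5e, Becn1 and Galnt1 are the genes whose mimic and scramble arrays did not overlap.

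The mimic and scramble arrays did not overlap in 3 of the 40 targets, Nt5e, Becn1 and Galnt1, each higher with the mimic. That is 7.5% of the targets, where 9.7% of all genes tested did not overlap (5.58% with the mimic higher and 4.12% with the mimic lower). The difference was smaller than the pooled SD of the replicates in 26 of the 40 targets (65.0%), and in 73.0% of all genes.

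Among the chromatin and transcription genes, 3 of 7 tested were higher and 4 lower, and none passed the test. Eed is a core subunit of Polycomb repressive complex 2, which methylates histone H3 at repressed genes. Its feature read 11.57, 12.13 and 12.20 on scramble replicates 1, 2 and 3 and 11.68, 12.30 and 12.18 on the mimic arrays with the same numbers. Both replicate 1 arrays were the lowest, and the treatment groups overlapped throughout, with a log2 difference of 0.09 (SE 0.22). Ezh2, the methyltransferase subunit of that complex, had 9.96 ± 0.07 with scramble and 10.04 ± 0.19 with the mimic (SD, n = 3 each), a difference of 0.08 (SE 0.15). The deacetylase gene Sirt1 had 0.04 (SE 0.21).

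On the lower side were 4 genes, 3 of them dimmer than the median named feature. Ier2, an immediate early gene, spanned 6.79 to 8.67 on the scramble arrays and 6.58 to 8.07 on the mimic arrays, with a difference of -0.29 and the largest SE of the targets (0.55). Leaving out scramble replicate 1 gave -0.79, and leaving out mimic replicate 1 gave 0.18. The differences of the forkhead factor gene Foxo3 (-0.21, SE 0.23), the coactivator gene Ppargc1b (-0.14, SE 0.21) and Prdm1, which encodes the transcriptional repressor Blimp1 (-0.11, SE 0.19), lay at the dim end.

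Genes of mesenchymal change, the cytoskeleton and the matrix divided 4 higher to 2 lower, with a median of 0.03. Snai1 encodes a repressor of E-cadherin that drives epithelial cells towards a mesenchymal state. It read 6.90, 8.28 and 8.23 on the scramble arrays and 7.87, 8.81 and 8.23 on the mimic arrays. Scramble replicate 1 stood far below the other arrays, and the groups overlapped above it. The difference of 0.50 (SE 0.45) came to 0.05 without that array and to 0.27 when both replicate 1 arrays were left out. Vim, the intermediate filament gene of mesenchymal cells, had 8.33 ± 0.24 and 8.17 ± 0.07 (SD, n = 3 each).

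Lox, whose product crosslinks collagen and elastin, had the lowest difference of the 40 targets. Its values were 7.94, 7.04 and 7.18 with scramble and 6.81, 6.88 and 7.26 with the mimic, near the dim end, and mimic replicate 3 lay above 2 scramble arrays. The difference was -0.40 (SE 0.26), or -0.13 without scramble replicate 1, and its 2 features gave -0.40 and -0.22. Twf1 encodes the actin-monomer-binding protein twinfilin. It read 10.52, 10.65 and 10.75 with scramble and 10.77, 10.64 and 10.96 with the mimic, a difference of 0.15 (SE 0.14), and mimic replicate 2 fell among the scramble arrays. Cfl2, which encodes the actin-severing protein cofilin 2, had 0.01 (SE 0.17), and its other feature had -0.30. Mtdh, which encodes metadherin, had 0.05 (SE 0.14).

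The 13 genes of cell surface proteins and signalling were close to even, 7 higher and 6 lower, with a median of 0.0044. Notch1, a receptor for ligands on neighbouring cells, gave 6.71, 7.04 and 8.52 on the scramble arrays and 6.94, 7.51 and 7.29 on the mimic arrays. A single bright reading, scramble replicate 3, set the sign of its difference of -0.18 (SE 0.44), which was 0.37 without that array. The other feature of Notch1 gave -0.34. Its ligand gene Dll4 had 0.00 (SE 0.28), with scramble arrays between 6.86 and 7.71 and mimic arrays between 6.78 and 7.57. Both were dim, and for both the interval was wide.

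Nt5e encodes the surface enzyme CD73, which makes adenosine from AMP. It read 7.33, 7.58 and 7.27 with scramble and 8.17, 7.66 and 7.58 with the mimic. All 3 mimic arrays lay above all 3 scramble arrays, but the nearest pair both round to 7.58, and the difference of 0.41 (SE 0.27) was 0.23 without mimic replicate 1. Ncam1, a neural cell adhesion molecule, had 7.12, 7.15 and 7.22 with scramble and 8.13, 7.20 and 7.18 with the mimic. Its difference of 0.34 (SE 0.28) came from mimic replicate 1, without which it was 0.03, and its 3 features ran from -0.08 to 0.34. The receptor genes Pdgfrb (-0.06, SE 0.21) and Celsr3 (0.01, SE 0.22) and the secreted Wnt antagonist gene Frzb (0.12, SE 0.18) all had mean signal below the median named feature.

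Inside the cell, Smad1 transmits signals of bone morphogenetic proteins. It had 8.43, 7.54 and 7.31 with scramble and 7.26, 7.66 and 7.60 with the mimic. Its sign rested on the bright scramble replicate 1, since the difference of -0.25 (SE 0.34) was 0.08 without it, and its second feature gave 0.01. Smad2, which serves activin, nodal and TGF-beta, had 8.68 ± 0.38 and 8.86 ± 0.09 (SD, n = 3 each). Its difference of 0.19 (SE 0.26) was -0.03 without scramble replicate 1, where that array was the low one.

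Socs1, a feedback inhibitor of cytokine signalling, gave 8.87, 8.57 and 8.26 with scramble and 8.25, 8.35 and 8.42 with the mimic. The mimic arrays lay at the lower end of the scramble range, with a difference of -0.23 (SE 0.27), and -0.08 without scramble replicate 1. Rasa1, a negative regulator of Ras, had -0.07 (SE 0.43), with both replicate 1 arrays far below the rest at 7.75 and 7.50 against 8.54 to 8.78. The small GTPase gene Rap1b had 0.14 (SE 0.13) and the adaptor gene Ywhaz -0.15 (SE 0.20), whose 3 features ran from -0.15 to 0.21.

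Of the 3 autophagy and mitophagy genes 2 were higher. Becn1 encodes beclin 1, part of the lipid kinase complex that starts autophagosomes. It read 8.59, 9.17 and 9.13 with scramble and 9.25, 9.24 and 9.18 with the mimic. The groups did not overlap, but only scramble replicate 1 stood clearly apart: the difference of 0.26 (SE 0.22) was 0.08 without it and 0.06 without both replicate 1 arrays. Atg5, whose product is joined to Atg12 to build the autophagosome membrane, had 9.62 ± 0.23 and 9.79 ± 0.09 (SD, n = 3 each), a difference of 0.17 (SE 0.17). The mitophagy receptor gene Bnip3l had -0.17 (SE 0.15), and its 4 features ran from -0.23 to 0.19.

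The 3 calcineurin genes, which encode the calcium-dependent phosphatase that activates NFAT factors, all had means slightly above scramble. Of all genes tested 53.2% were higher. The signs held after quantile normalization and after a median shift. Leaving out scramble replicate 2 gave -0.02 for Ppp3cb, 0.20 for Ppp3ca and 0.21 for Ppp3r1. The catalytic subunit gene Ppp3ca read 9.43, 9.58 and 9.62 with scramble and 9.52, 9.78 and 9.89 with the mimic. The regulatory subunit gene Ppp3r1 read 10.27, 10.41 and 10.51 with scramble and 10.44, 10.52 and 10.84 with the mimic. Each of the mimic arrays exceeded the scramble array of the same number in both genes, while the groups as a whole overlapped. Differences were 0.19 (SE 0.17) for Ppp3ca, 0.21 (SE 0.15) for Ppp3r1 and 0.06 (SE 0.20) for Ppp3cb, the other catalytic subunit. None of the 3 passed with the replicate block either.

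Galnt1 and Galnt7 encode enzymes that start mucin-type O-glycans, and both are known miR-30 targets. Galnt1 read 8.31, 8.32 and 8.30 with scramble and 8.69, 8.45 and 8.39 with the mimic. Its scramble arrays were the tightest of all targets by their SD of 0.01, and all 3 mimic arrays were above them, with a difference of 0.20 (SE 0.25) and 0.11 without mimic replicate 1. The limma SE is larger than these arrays' own spread, since it is drawn towards that of genes of like signal. Galnt7 read 10.57, 9.46 and 9.87 with scramble and 10.36, 9.22 and 9.80 with the mimic. Its values followed the replicate number: each mimic array was below its same-numbered scramble array, by less than the scramble arrays differed from each other. The difference was -0.17 (SE 0.34), and -0.17 with an SE of 0.12 with the replicate block.

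Sec23a, part of the coat of vesicles that leave the endoplasmic reticulum, gave 7.60, 8.39 and 8.85 with scramble and 8.76, 8.66 and 8.96 with the mimic. Its difference of 0.51 (SE 0.35) was 0.17 without scramble replicate 1. Cpsf2, a subunit of the factor that cleaves pre-messengers for polyadenylation, had the highest difference among the targets. It read 7.44, 8.61 and 8.56 with scramble and 8.56, 8.91 and 8.93 with the mimic. The groups overlapped only through mimic replicate 1, and the difference of 0.60 (SE 0.36) came to 0.22 when scramble replicate 1 was left out and to 0.34 when both replicate 1 arrays were.

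Klhl20, an adaptor of a cullin ubiquitin ligase, had 7.56, 8.12 and 8.03 with scramble and 8.64, 8.19 and 8.11 with the mimic. Only the replicate 1 arrays lay far apart, on opposite sides, and the difference of 0.41 (SE 0.31) was 0.08 without both. Its relative Klhl28 had -0.04 (SE 0.26), the splicing-related gene Zranb2 0.16 (SE 0.15) and the ubiquitin ligase gene Nedd4 0.02 (SE 0.14). Ccne2, the cyclin E2 gene, read 7.20, 7.04 and 6.84 with scramble and 6.82, 6.97 and 6.92 with the mimic. It was brighter than only 3.99% of named features, so its difference of -0.12 was not tested.

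**Figure D2:**
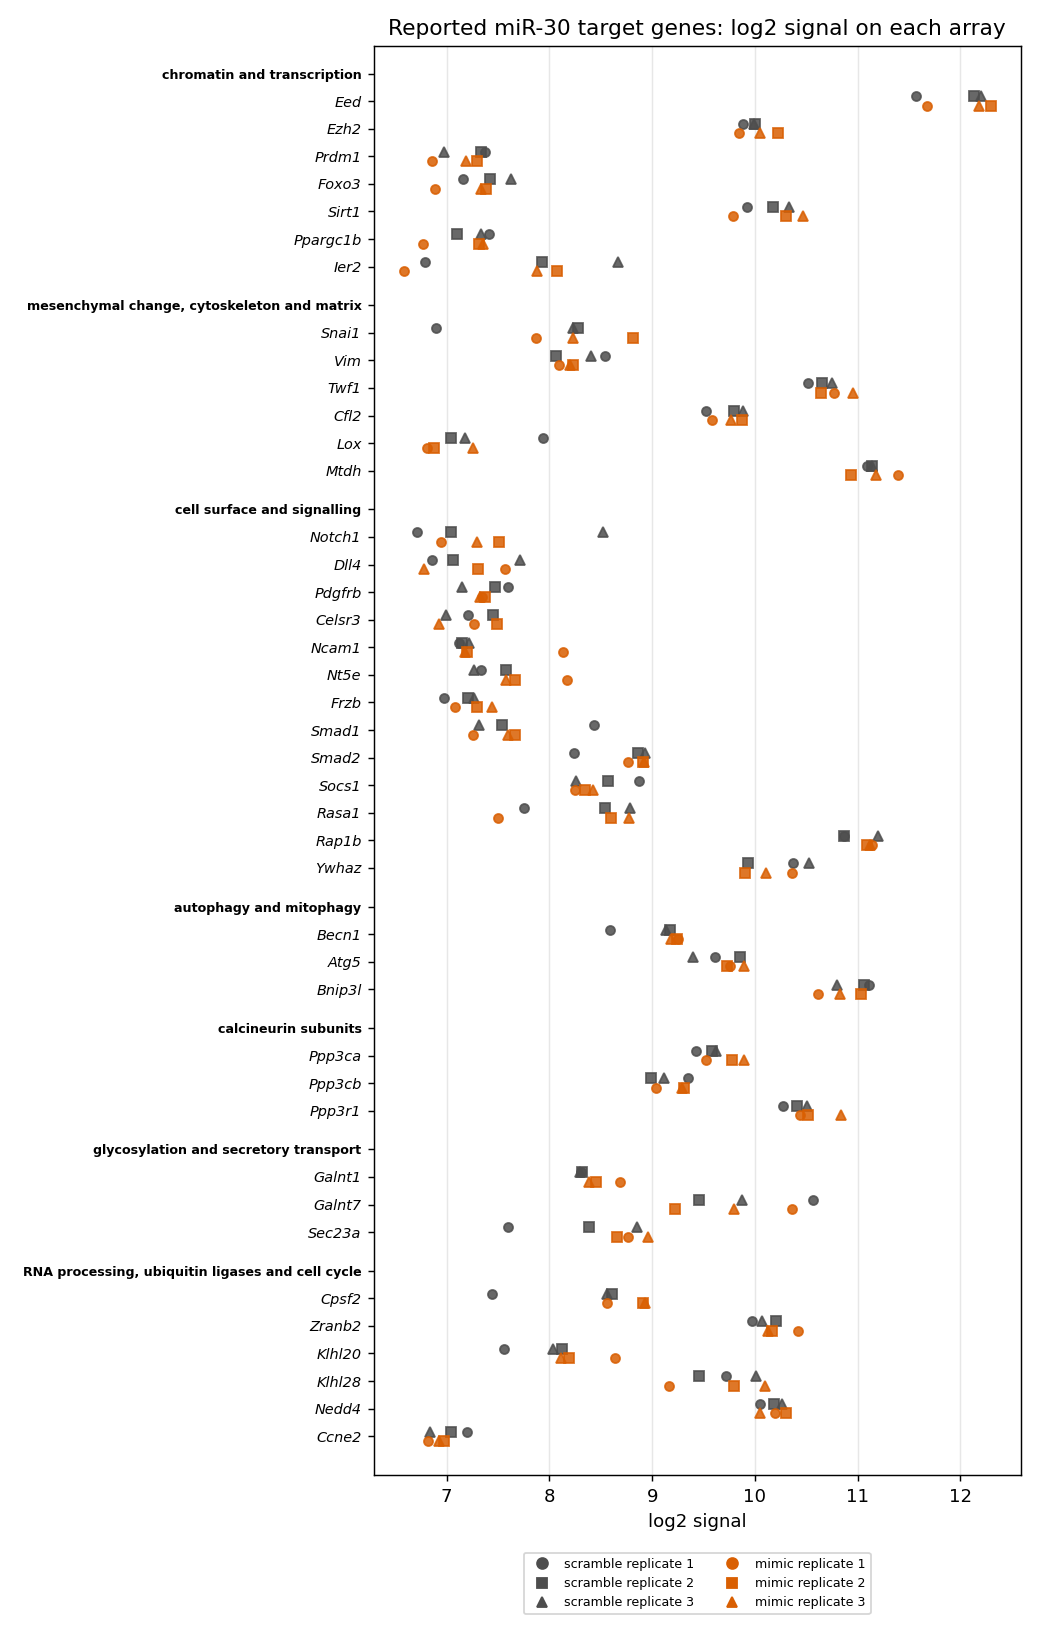
Log2 signal of the 41 target genes with a named feature on each of the 6 arrays (scramble grey, mimic orange; circle, square and triangle for replicates 1, 2 and 3), grouped by role. In Eed, Ier2 and Rasa1 both circles lie lowest, and in Galnt7 both lie highest.

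In 14 of the 40 tested targets (35.0%) both replicate 1 arrays were the 2 lowest or the 2 highest of the 6, in 13 the lowest and in 1 the highest, while this held for 37.1% of all genes tested. Scramble replicate 1 gave the lowest reading of the 6 in 17 targets (42.5%), against 31.9% of all genes, and the highest in 10, where 24.3% of all genes had their highest reading on it. Of the 17, 16 had a positive difference, and of the 10, 9 had a negative difference. That array enters the scramble mean, so its reading itself pushes the sign that way. The split is thus no separate result about the targets, and the like share over all genes was not counted. The median target lay 0.183 below its own mean over the arrays on scramble replicate 1, and the median gene 0.073 below. Without scramble replicate 1 the sign changed in 9 of the 40 targets, and 22 were higher and 18 lower. What sets this array apart was not tested.

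**Figure D3:**
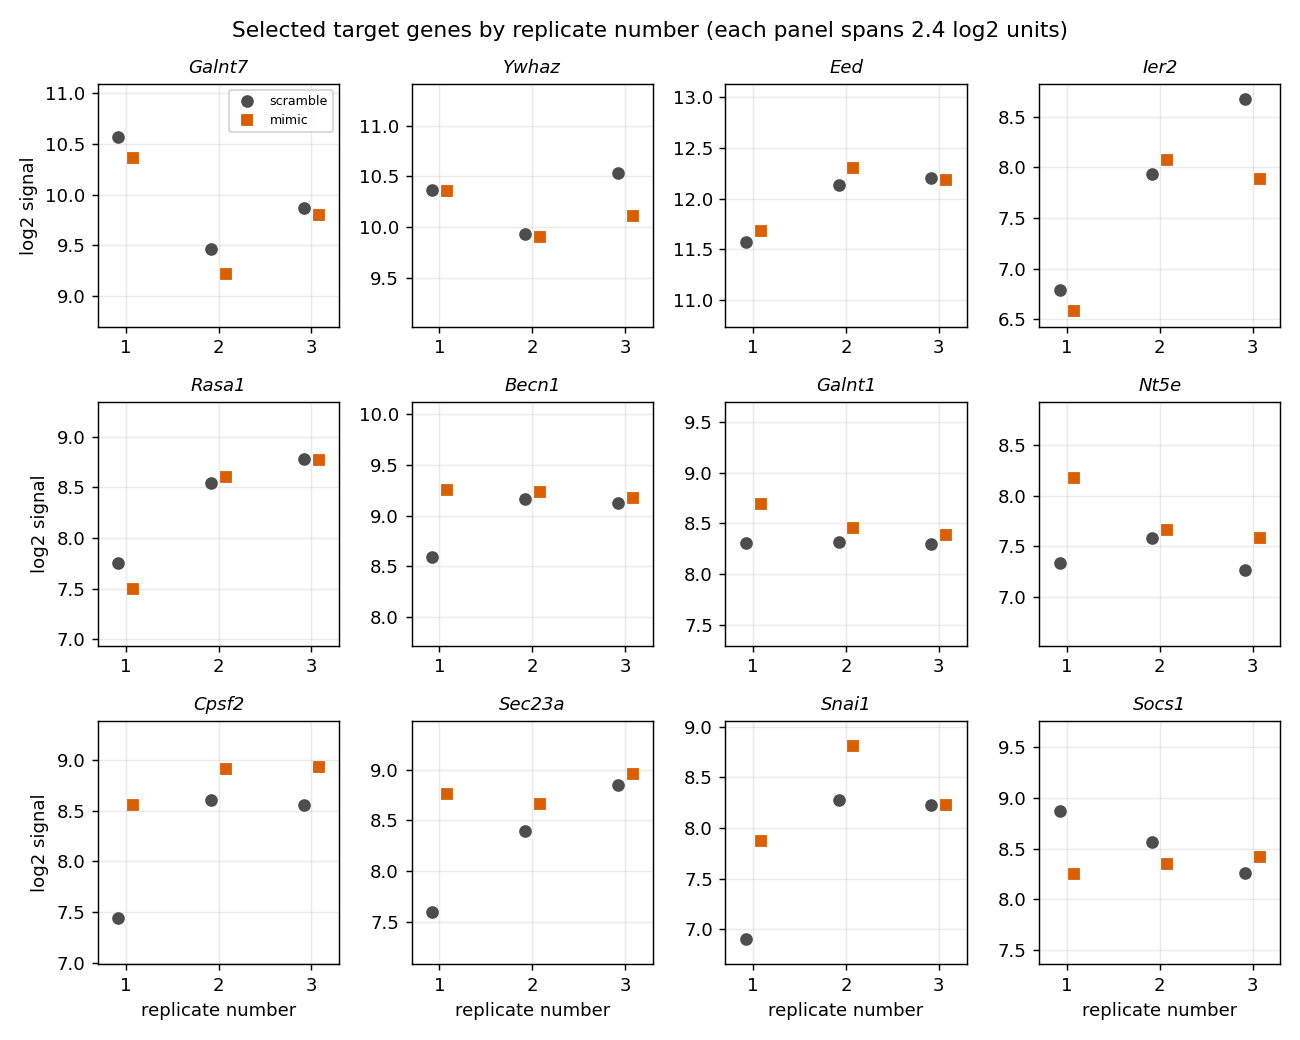
Log2 signal of 12 target genes by replicate number, scramble as grey circles and mimic as orange squares, with the same span on every vertical axis. Galnt7, Eed, Ier2 and Rasa1 differ more between replicate numbers than between treatments, whereas Becn1, Cpsf2, Sec23a and Snai1 have their widest gap at replicate 1.

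**Figure D4:**
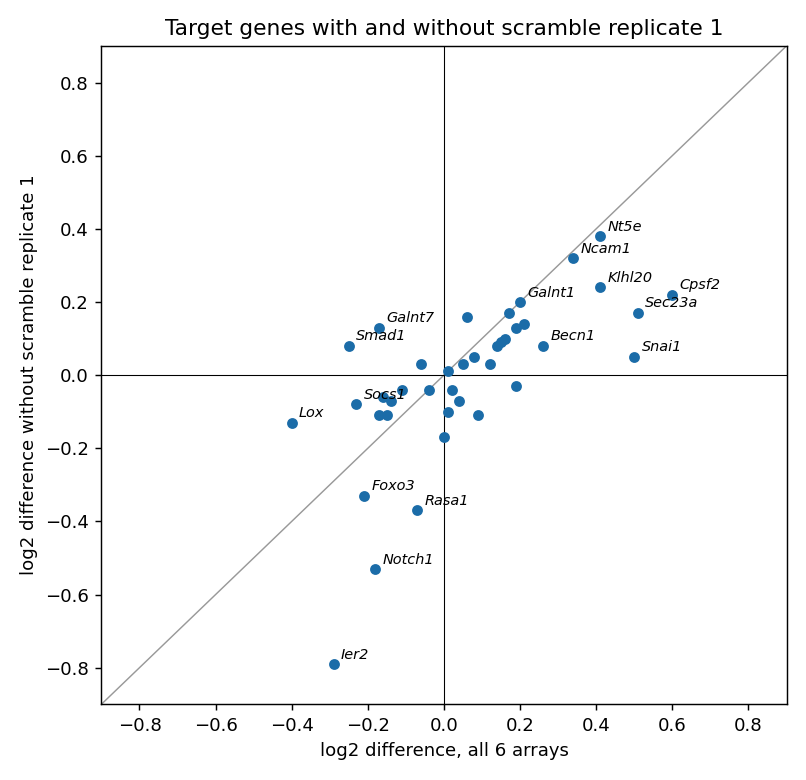
Log2 difference of each of the 40 tested targets with all 6 arrays (horizontal) and without scramble replicate 1 (vertical), with the diagonal marking equal values. Cpsf2 went from 0.60 to 0.22 and Snai1 from 0.50 to 0.05, while Nt5e (0.41 and 0.38) and Galnt1 (0.20 both times) lie on or near the diagonal.

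The arrays set limits on how large a decrease could have gone unseen. The 95% interval of the difference lay above -1, a 2-fold decrease, in 35 of the 40 targets (87.5%), and in 86.2% of all genes tested. It lay above a 1.5-fold decrease in 27 (67.5%), against 57.6% of all genes. For Eed it ran from -0.41 to 0.59, for Becn1 from -0.24 to 0.76, for Twf1 from -0.17 to 0.47 and for Ppp3ca from -0.20 to 0.57. Snai1 (-0.52 to 1.52) and Galnt7 (-0.96 to 0.61) were less precisely measured, and for Notch1 (-1.18 to 0.82) and Ier2 (-1.54 to 0.96) a 2-fold decrease lay inside the interval. All these intervals are from the fit without the replicate block. In these 4 genes the SEs were 0.45, 0.34, 0.44 and 0.55 in that fit. With the block they were smaller, at 0.28, 0.12, 0.35 and 0.27, so the limits depend on whether the replicate numbers pair the samples. By brightness, 21 of 30 targets brighter than the median named feature were higher (median 0.09), and 4 of 10 dimmer ones (median -0.09), a split chosen after the values were seen. Of all genes brighter than that feature, 6520 of 11657 were higher (median 0.04), and of all genes tested, 9254 of 17399 (median 0.02). Dimmer genes in general were thus less often higher too. Of 8 targets with several features, 5 had features on both sides of 0.

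Among partners of the targets no gene passed the adjusted threshold. Since 0 of all 17399 genes did, this says nothing about the lists. The 2 genes with the smallest p are named from each list, so groups apart among them follow in part from that choice. Groups were apart in 9.7% of all genes tested. Of 9 other genes of Polycomb repressive complex 2, 7 were higher and 2 lower (median 0.05), led by Phf19 (0.33, SE 0.28) and Phf1 (0.37, SE 0.33), which encode subunits that help bring the complex to chromatin. Leaving out scramble replicate 1 gave 0.19 and 0.11 for them. Of 9 calcineurin and NFAT genes 3 were higher and 6 lower (median -0.17). Among them the regulatory subunit gene Ppp3r2, on a dim feature, had -0.47 (SE 0.22) and the factor gene Nfatc1 0.58 (SE 0.46). The first was -0.28 without scramble replicate 1, and the second ran from 0.31 without mimic replicate 2 or 3 to 1.11 without mimic replicate 1. Of 15 autophagy genes 9 were higher and 6 lower (median 0.06). Map1lc3b, whose product LC3B coats autophagosomes, read 11.13, 11.20 and 11.27 with scramble and 11.00, 10.94 and 10.85 with the mimic. All mimic arrays were lower, its 10 features gave -0.33 to -0.18, and the difference was -0.26 (SE 0.12). Gabarapl2, of the same protein family, had -0.39 (SE 0.27), with -0.13 without mimic replicate 1, -0.22 without scramble replicate 2 and -0.57 without scramble replicate 1.

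Of 11 other Notch pathway genes tested 8 were higher and 3 lower (median 0.22). The receptor gene Notch3 had 0.60 (SE 0.30) with no overlap of the groups, and the pathway's target gene Hes5 had -0.40 (SE 0.20). SMAD and mesenchymal genes divided 6 to 4 among 10 (median 0.19). Smad7, an inhibitor of TGF-beta signalling, had 0.81 (SE 0.36) and the fibronectin gene Fn1 0.31 (SE 0.14), both with groups apart. Groups were apart in 9.7% of all genes tested, and the genes named from each list are those with its smallest p. For Smad7, leaving out scramble replicate 1 gave 0.41, and leaving out both replicate 1 arrays gave 0.37. Among 9 further genes of the vesicle coat in which Sec23a acts, 6 were higher and 3 lower (median 0.09). Its partner Sec24a read 7.65, 8.44 and 8.37 with scramble and 8.97, 8.78 and 9.02 with the mimic, a difference of 0.77 (SE 0.29), and Sec23b had 0.27 (SE 0.18), or 0.11 without scramble replicate 1. The 3 features of Sec24a ran from 0.03 to 0.77.

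Another 14 tested genes that have been reported as miR-30 targets, outside the 42, were more often higher, 11 to 3, with a median of 0.46. The list was made with earlier results of these data known, and it holds Itgb3, which the study had singled out on these samples, so it is no independent evidence of direction. Itgb3, the beta 3 integrin subunit of blastocyst attachment, read 6.84, 8.67 and 7.75 with scramble and 9.23, 10.29 and 9.98 with the mimic, while its second feature had a difference of only 0.30. Camk2d, a calcium-dependent kinase gene, had 0.86 (SE 0.30), while its 4 features ran from -0.05 to 0.86. Socs3, like Socs1 an inhibitor of cytokine signalling, had 0.50 (SE 0.23), or 0.25 without scramble replicate 1. The groups did not overlap in any of these 3 genes, as held for 9.7% of all genes tested. Itgb3 and Camk2d were named for the smallest p of the list, so their separation is no further support. Of the genes that carry or encode miR-30 hairpins, only Nfyc, host of miR-30c-1 and miR-30e, had a named feature. It read 11.74, 11.72 and 11.55 with scramble and 11.40, 11.45 and 11.38 with the mimic, a difference of -0.26 (SE 0.12), and its other feature had 0.05.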

How the data were processed

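Whole blastocysts in 2 groups of 3 samples were arrayed, 1 array each, with groups and replicate numbers from the sample titles. The deposited table holds log2 signal of 45220 features, a scale taken from their range. Scanner software and normalization were not given in the sources used here, and a change shared by most genes could not be seen if arrays were scaled together. Of the features 33026 had 1 gene symbol and 12194 did not, and 32438 symbols were checked by Entrez identifier against RefSeq genes of GRCm38.p6. The dimmest 25% of named features, up to a mean of 7.16, were left out, which kept 24769, and each gene was read from its brightest feature. No detection calls were used, so a dim gene's difference may be understated. The groups were tested against each other in limma 3.58.1 under R 4.3.3 (lmFit, eBayes with trend, two-sided, Benjamini-Hochberg adjustment over 17399 genes, threshold 0.05), which was first tested on simulated data. Intervals are 95% intervals of that fit. Precision is limited by the 6 arrays, and p-values reflect only how these samples vary. The labels call them biological replicates without saying whether they came from separate matings.

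The member genes, partner lists and tests were chosen with earlier results of these data known. Each member is named. Values on all arrays are given for those whose groups do not overlap, the 10 with the smallest p and 12 targets taken as core ones. From each partner list the 2 genes with the smallest p are named, with Itgb3 and Socs3. The 2 arrays of a number, each taken relative to its group mean, correlated at 0.328, 0.349 and 0.204 for replicates 1, 2 and 3. Every pair was over 0.1, the rule used for pairing, but differently numbered arrays also reached 0.185. Pairing is thus read from the data and is not settled. The labels do not say that the numbers mark a shared day, so the main fit has no block. Alternatives were other dim filters, the mean of a gene's features, quantile normalization, a median shift, no trend, array weights, the replicate block, and arrays left out. Figures were drawn with matplotlib 3.10.9.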

Additional observations from a re-analysis of the deposited data

How the results depend on the processing

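The counts and the median of the target genes were recomputed under 15 alternatives. With the replicate block 1 gene in all passed the adjusted threshold, where the model without it called 0, and the block changed no other call. None of the targets passed under any of the 15. In the 6 fits that left out 1 array each, 0 genes passed, 19 to 28 of the 40 targets were higher, and their median log2 difference went from -0.0111 to 0.141. The other settings gave medians from 0.0265 (quantile normalization) to 0.0869 (lowest 50% of features left out, with 21 of 30 targets higher). The sign of the difference was the same in all 15 in 15 of the 30 targets that had a value in each. The dim filters, the fit without trend and the replicate block leave a gene's difference as it was, so they cannot change its sign. The like share over all genes was not counted. Array weights raised the count of genes at an unadjusted p under 0.05 from 552 to 1208, with 0 targets among them, and leaving out both replicate 1 arrays gave 1000, of which Cpsf2 was the only target. With 3 arrays a group the median SE of a target was 0.22. In that fit, without the block, no target's difference was resolved from 0. This held even for the largest, 0.60 for Cpsf2 (95% interval -0.23 to 1.42).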

Other observations

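Some reported targets, chosen after their values were seen, had an isolated bright reading on mimic replicate 1. Irs2, an adaptor of the insulin receptor, read 11.47 there and 7.13 to 7.74 on the other 5 arrays. Sox9, a transcription factor gene, read 8.90 there and 6.80 to 7.40 elsewhere, and its 10 features had log2 differences from -0.48 to 0.66. Both belong to the list of reported targets outside the 42. Ncam1 read 8.13 on that array and 7.12 to 7.22 on the others. The endothelial marker Cdh5, which is no reported target here, read 11.60 on the same array and 7.30 to 8.56 on the others, and its difference was 1.87 with all arrays and 0.78 without that one. The difference of Irs2 was 1.39 (SE 0.94) with all arrays and 0.08 without mimic replicate 1.

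Among the calcineurin genes, Ppp3r1 and Ppp3r2, which encode alternative regulatory subunits, lay on opposite sides, at 0.21 (SE 0.15) and -0.47 (SE 0.22). The difference between them was not tested, and Ppp3r2 read 6.89 to 7.88, near the dim end.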
